A study of Homo sapiens with 24 samples.

Results

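The neutrophil-attracting CXC chemokines are the secreted proteins CXCL1, CXCL2, CXCL3, CXCL5, CXCL6 and CXCL8, a list of 6 genes set by symbol. Of these, 5 had a row among the 39321 genes of the count table, and CXCL6 was not analysed here. All 5 were above 0 in the 12 libraries labelled A-498, and 4 in the 12 libraries labelled 786-0, where CXCL5 was listed at 0 in every library. A-498 and 786-0 (written A498 and 786-O by the study) are long-established human tumor lines, both from clear cell renal cell carcinoma, the commonest kidney cancer. The cells were transfected at 20 nM with a pool of non-targeting control siRNA (Cnsi) or with 1 pool of siRNA against PD-L1 (PD-L1si), the ligand of the T cell receptor PD-1. From 24 hours after transfection they were given IFNγ, a cytokine made by activated T cells and natural killer cells, at 50 ng/mL for another 24 hours, or were left without it. Each line thus had 4 groups of 3 libraries: both siRNAs without IFNγ (Cnsi and PD-L1si) and both with it (Cnsi IFNγ and PD-L1si IFNγ), so that every group carried an siRNA. The labels give all 4 groups, whereas the account of RNA extraction names 3 and leaves out PD-L1si without IFNγ, and what is shown of that group and of the interaction rests on the labels. The sample labels call the PD-L1si groups knockout, whereas the study's methods describe transient silencing, and with 1 pool against PD-L1 the effects of the pool on other transcripts cannot be told apart from those of PD-L1.

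These chemokines carry the amino acids glutamate, leucine and arginine ahead of their CXC motif, and they bind the receptor CXCR2, while CXCL6 and CXCL8 also bind CXCR1. Both receptors sit on neutrophils and draw them out of the blood into inflamed tissue and tumors. The genes are clustered on chromosome 4 and are classical targets of NF-κB, which IL-1, TNF, IL-17 and bacterial products switch on, and their messages are short-lived. In kidney cancer cells CXCL8 and its relatives are also known as factors that promote blood vessel growth. In GRCh38 (GENCODE 44) the genes with a row were CXCL8 (interleukin 8, chr4:73740519-73743716, plus strand), CXCL1 (chr4:73869393-73871308, plus strand), CXCL5 (chr4:73995642-73998677, minus strand), CXCL3 (chr4:74036589-74038807, minus strand) and CXCL2 (chr4:74097040-74099196, minus strand).

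The proximal promoters show what the measured members share in sequence. The 150 bases before the RefSeq start of each gene (GRCh38.p14) are printed 5′ to 3′ on the strand of the gene, with the NF-κB motif GGAATTTCC in capitals, together with the AP-1 motif match of CXCL8. GENCODE places the outermost start of CXCL2, CXCL3 and CXCL8 further upstream, inside the printed stretch, for CXCL2 at its last base.
CXCL1, chr4:73869243-73869392, plus strand: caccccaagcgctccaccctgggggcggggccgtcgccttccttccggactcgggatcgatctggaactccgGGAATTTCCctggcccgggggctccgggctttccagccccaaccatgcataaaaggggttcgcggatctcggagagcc
CXCL2, chr4:74099196-74099345, minus strand: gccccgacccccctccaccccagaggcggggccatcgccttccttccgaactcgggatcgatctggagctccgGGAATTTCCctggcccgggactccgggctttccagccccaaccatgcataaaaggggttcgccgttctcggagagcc
CXCL3, chr4:74038690-74038839, minus strand: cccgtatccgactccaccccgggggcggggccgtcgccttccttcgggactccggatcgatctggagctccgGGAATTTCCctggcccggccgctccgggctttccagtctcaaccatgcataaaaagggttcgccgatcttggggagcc
CXCL5, chr4:73998678-73998827, minus strand: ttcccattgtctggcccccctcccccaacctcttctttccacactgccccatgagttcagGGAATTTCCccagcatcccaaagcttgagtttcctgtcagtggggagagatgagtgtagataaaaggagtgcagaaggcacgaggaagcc
CXCL8, chr4:73740419-73740568, plus strand: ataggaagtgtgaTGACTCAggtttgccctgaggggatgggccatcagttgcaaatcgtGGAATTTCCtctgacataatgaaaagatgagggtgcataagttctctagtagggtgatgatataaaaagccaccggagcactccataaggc

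All 6 listed genes matched a RefSeq promoter, and the 250 bases before the start were searched on both strands. GGAATTTCC, or GGAAATTCC on the other strand, stood in 6 of the 6 promoters and in 145 of all 35116 promoters (0.413%). Only this exact string was searched for NF-κB, and other forms of its site were not. The 0.413% is thus the share of the string and not of NF-κB sites. The other motifs were searched with open bases, so that the shares of the motifs are not alike. The 6 of 6 rests on the choice of the string and supports nothing on its own. GGAATTTCC lay at bases -78 to -70 from the start in CXCL1 and CXCL3, at -77 to -69 in CXCL2, at -90 to -82 in CXCL5 and at -91 to -83 in CXCL8. TGANTCA, a form of the AP-1 site, was matched in CXCL8 only, as TGACTCA at -137 to -131, and in 6.57% of all promoters. The core of the interferon-stimulated response element, GAAA with any 2 bases before a further GAAA, was matched in none of the 6 and in 3.02% of all promoters. The promoters of CXCL1 and CXCL3 were identical at 84.0% of 250 bases, those of CXCL1 and CXCL2 at 78.8% and those of CXCL2 and CXCL3 at 78.4%, whereas that of CXCL8 was identical at 50.0% to 55.2% to the others. The transcribed sequences of CXCL2 and CXCL3 also shared exact stretches: 79 of the 1479 windows of 100 bases in CXCL2 (5.34%) and 79 of the 2413 in CXCL3 (3.27%) were found in the other gene, and none of those of CXCL1, CXCL5 or CXCL8 were found in another listed gene.

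The total count per library ran from 19256316 to 27907526 in the libraries labelled A-498 and from 26807875 to 30350461 in those labelled 786-0. Which line gave which libraries was left undecided, because the sources differ: the study's tables list under each line the responses that the labels give to the other, while its text assigns some to the line the labels name, and "labelled" is written throughout. The study sequenced its lines on different instruments, so that line and instrument cannot be told apart. A count of 0 was not read as absence in the libraries labelled 786-0, where 4670 genes were at 0 in all 12, 1475 of them with over 1000 counts over the libraries labelled A-498, and where ACTB, an actin of every cell, was at 0 with at least 53799 counts in each library labelled A-498. The markers of kidney tubule and clear cell renal carcinoma reached 1 CPM (count scaled to a common library size) for 14 of 15 genes in the libraries labelled A-498 and for 10 of 15 in those labelled 786-0, where PAX2, EGLN3 and VEGFA were at 0. The 7 neutrophil markers with a row summed to 0.211 to 0.920 CPM in the libraries labelled A-498, with CXCR2 and S100A12 at 0. They summed to 4.55 to 12.6 CPM in those labelled 786-0, where the integrin gene ITGAM led with a mean of 5.21 CPM in Cnsi and 11.1 CPM in Cnsi IFNγ, with CSF3R, FCGR3B and CEACAM8 at 0. Markers of other leukocytes summed to at most 1.01 and 2.90 CPM in the libraries labelled A-498 and 786-0, and those of endothelium to at most 0.0842 and 1.69 CPM.

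CD274, the gene of PD-L1, served as the check of both treatments. With the label A-498 it had 100, 138 and 144 counts in Cnsi, 4546, 5134 and 3976 in Cnsi IFNγ, 23, 24 and 26 in PD-L1si and 617, 540 and 571 in PD-L1si IFNγ. In those labelled 786-0 it had 121, 117 and 122 counts in Cnsi, 1554, 1612 and 1670 in Cnsi IFNγ, 42, 37 and 58 in PD-L1si and 853, 894 and 848 in PD-L1si IFNγ. Every library went with its label in both treatments. PD-L1si lowered CD274 by edgeR's quasi-likelihood test with log2 fold changes of -2.47 without and -2.81 under IFNγ in the libraries labelled A-498 (adjusted p = 6.46e-15 and 1.60e-29), and of -1.42 and -0.94 in those labelled 786-0 (adjusted p = 9.68e-08 and 6.72e-10).

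The order of the chemokines by level differed between the 2 sets of libraries. Each set was scaled on its own, the lines were sequenced on different instruments, and rows at 0 are in doubt with the label 786-0. Differences in level between the sets were therefore not tested. Per kilobase of exon, which allows levels to be compared between genes, the Cnsi libraries labelled A-498 held on average 19.9 CPM of CXCL5, 15.4 of CXCL8, 14.0 of CXCL1, 4.03 of CXCL2 and 0.897 of CXCL3. In that order CXCL8 (14.7 to 16.6) and CXCL1 (13.0 to 15.4) overlapped and the other neighbours did not. In the Cnsi libraries labelled 786-0 CXCL2 came first with 1.68 CPM per kilobase (1.53 to 1.87), followed by CXCL1 with 0.597, CXCL3 with 0.207 and CXCL8 with 0.156, of which the last 2 (0.115 to 0.258 and 0.0663 to 0.235) overlapped. The exon lengths are those of all annotated exons together, so that these levels depend on the annotation.

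**Figure D1:**
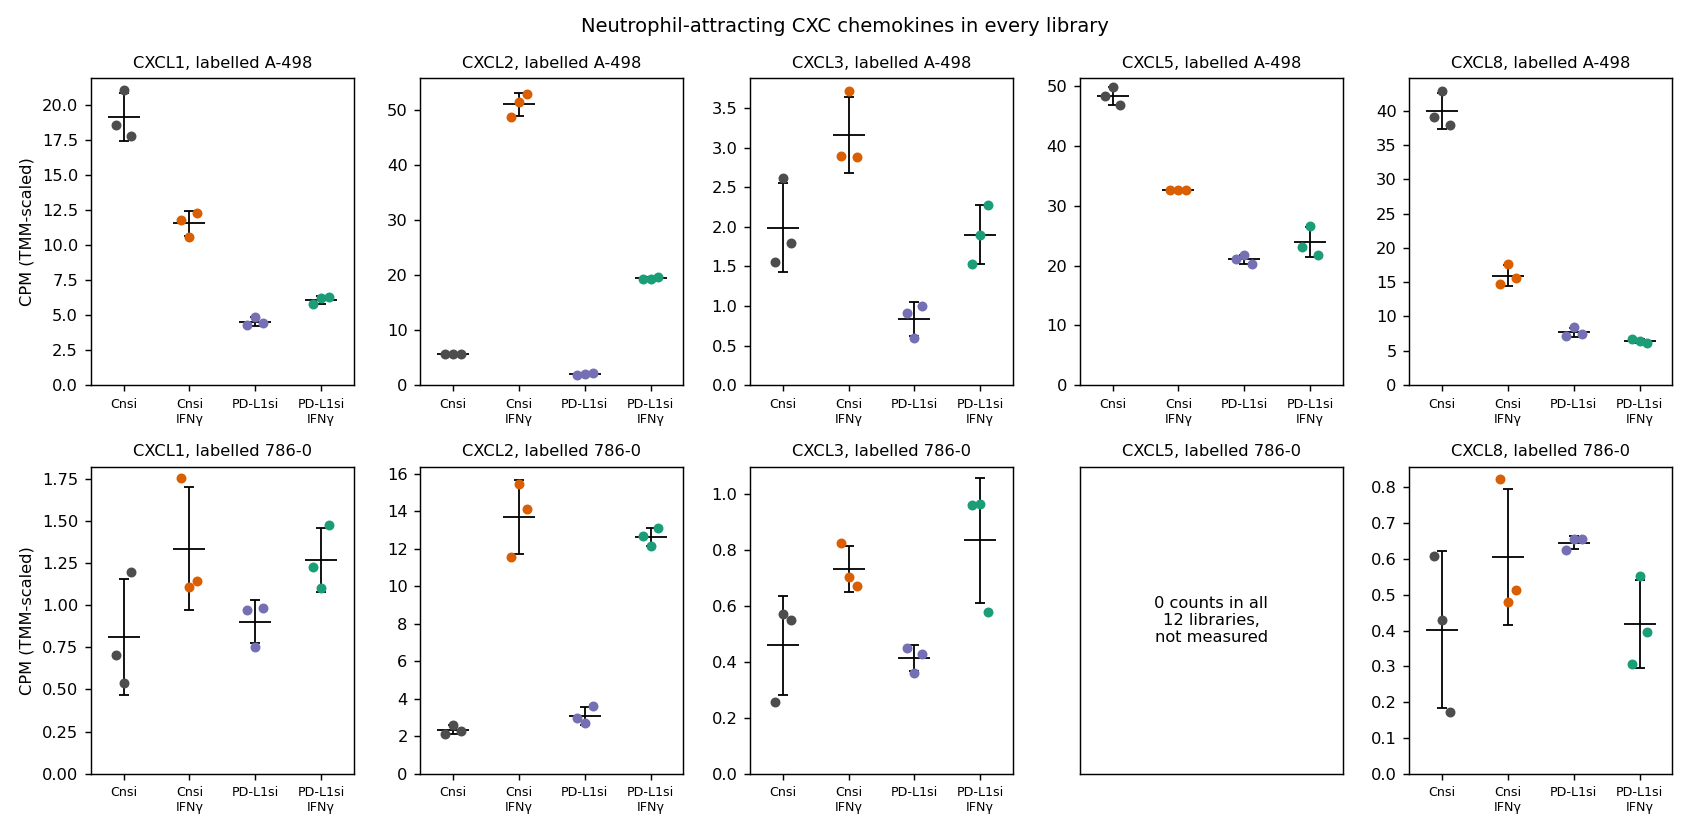
Expression of the 5 chemokines with a row, in CPM scaled by TMM, in each library (points), with the mean and SD of the 3 libraries of a group (lines); the upper row holds the libraries labelled A-498 and the lower row those labelled 786-0, and the vertical axes differ between panels. CXCL2 rose with IFNγ in all 4 pairings of line label and siRNA, while CXCL1, CXCL5 and CXCL8 fell with IFNγ in Cnsi of the libraries labelled A-498, where all 5 were lower in PD-L1si than in Cnsi.

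IFNγ moved the chemokines of Cnsi cells in opposite directions in the libraries labelled A-498. CXCL2 rose 9.04-fold and CXCL3 1.60-fold, whereas CXCL8 fell 2.50-fold, CXCL1 1.66-fold and CXCL5 1.48-fold. All 5 of the 5 members thus passed the threshold (an adjusted p under 0.05 with a log2 fold change above 0.5 or below -0.5), 2 higher and 3 lower, where 36.8% of the 20916 genes tested passed it, 18.2% higher and 18.5% lower. The median log2 fold change was -0.56 over the members and -0.032 over all genes tested. In bulk RNA, fewer cells that make a transcript and less of it per cell cannot be told apart.

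CXCL2, known as macrophage inflammatory protein 2-alpha, was at 5.62, 5.61 and 5.66 CPM in Cnsi and at 48.7, 51.4 and 52.9 CPM in Cnsi IFNγ. The 3 libraries with IFNγ all lay far above those without (log2 fold change 3.18, SE 0.0773, adjusted p = 4.42e-30, edgeR's quasi-likelihood test, adjusted after Benjamini and Hochberg, as for all adjusted p-values here). CXCL3, the third of the GRO chemokines, was at 1.56, 2.62 and 1.79 CPM in Cnsi and at 2.89, 3.72 and 2.89 CPM in Cnsi IFNγ, so that the groups did not overlap although 1 Cnsi library came near (log2 fold change 0.68, SE 0.182, edgeR adjusted p = 0.00140).

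CXCL8, the main neutrophil attractant of human tissues, was at 39.1, 42.9 and 37.9 CPM in Cnsi and at 14.7, 17.7 and 15.5 CPM in Cnsi IFNγ. Every library with IFNγ was below every library without (log2 fold change -1.32, SE 0.0693, edgeR adjusted p = 1.18e-18). CXCL1, first described as a growth factor of melanoma cells, was at 18.5, 21.0 and 17.7 CPM in Cnsi and at 11.8, 10.5 and 12.3 CPM in Cnsi IFNγ (log2 fold change -0.73, SE 0.0788, edgeR adjusted p = 3.10e-10). CXCL5, which epithelial cells release on stimulation with IL-1 or TNF, was at 48.3, 49.8 and 46.9 CPM in Cnsi and at 32.7, 32.7 and 32.7 CPM in Cnsi IFNγ (log2 fold change -0.56, SE 0.0565, edgeR adjusted p = 6.22e-11). For all 3 the groups did not overlap, as for 66% of all genes tested.

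In the Cnsi libraries labelled 786-0 IFNγ raised CXCL2 5.83-fold, and no member fell. CXCL2 was at 2.14, 2.61 and 2.30 CPM in Cnsi and at 11.5, 15.4 and 14.1 CPM in Cnsi IFNγ, without overlap, as for 47.3% of all genes tested (log2 fold change 2.54, SE 0.134, edgeR adjusted p = 7.93e-15). CXCL1 was at 0.703, 0.536 and 1.20 CPM in Cnsi, on 22, 15 and 35 counts, and at 1.76, 1.11 and 1.14 CPM in Cnsi IFNγ, on 49, 30 and 29 counts. The groups overlapped, and although CXCL1 passed the threshold (log2 fold change 0.72, SE 0.270, edgeR adjusted p = 0.0354), it did not pass it with DESeq2 (adjusted p = 0.0819), in a model of only the 2 groups (0.0802), or without Cnsi library 1 (0.128), Cnsi library 2 (0.180) or Cnsi IFNγ library 1 (0.223). CXCL3 had 8, 16 and 16 counts in Cnsi and 23, 19 and 17 in Cnsi IFNγ, also without overlap in CPM (log2 fold change 0.69, 95% confidence interval 0.03 to 1.35, edgeR adjusted p = 0.0906). CXCL8 had 19, 12 and 5 counts in Cnsi and 23, 13 and 13 in Cnsi IFNγ (log2 fold change 0.58, 95% confidence interval -0.18 to 1.34, edgeR adjusted p = 0.225). The call thus held for 2 of the 4 members measured, both higher, where 18.5% of 21209 genes were called and 11.1% were higher. The integrin gene ITGAM, 1 of the 7 neutrophil markers with a row, was higher with IFNγ in the same libraries, as given above. All 7 summed to 5.66 to 7.08 CPM in Cnsi and to 11.1 to 12.3 CPM in Cnsi IFNγ, with ITGAM at 5.21 and 11.1 CPM on average. Of the 7, only 2 reached 1 CPM and 3 were at 0 in all libraries of the label. The part of these markers in the chemokine values was not tested.

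**Figure D2:**
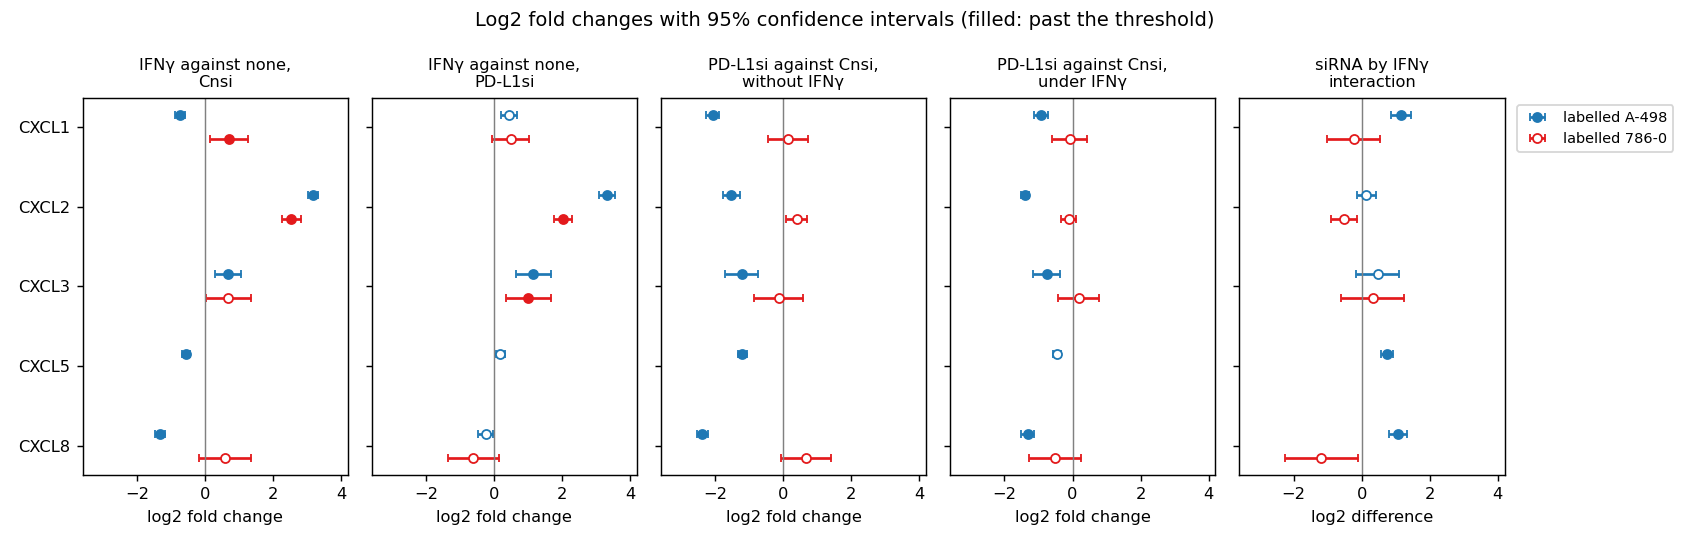
Log2 fold changes of each chemokine (horizontal axes) in the 4 comparisons within a line label and in the interaction of siRNA and IFNγ, with 95% confidence intervals, in blue for the libraries labelled A-498 and in red for those labelled 786-0; filled points passed the threshold. In the 2 panels of PD-L1si against Cnsi the blue points lie between -2.39 and -0.46, whereas the red intervals include 0 except for CXCL2 without IFNγ.

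PD-L1 siRNA lowered every chemokine measured in the libraries labelled A-498 that had no IFNγ. CXCL8 was 5.23-fold lower, CXCL1 4.23-fold, CXCL2 2.89-fold, CXCL3 2.34-fold and CXCL5 2.30-fold. All 5 of the 5 members were called lower, where 8.48% of all genes tested were called and 5.6% were lower, and the median log2 fold change was -1.53 over the members and -0.0031 over all genes.

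In PD-L1si CXCL8 was at 7.22, 8.42 and 7.37 CPM, on 205, 200 and 207 counts, against 980, 1078 and 951 counts in Cnsi (log2 fold change -2.39, SE 0.0798, edgeR adjusted p = 3.89e-23). CXCL1 was at 4.26, 4.89 and 4.45 CPM, on 121, 116 and 125 counts against 465, 529 and 445 (log2 fold change -2.08, SE 0.0961, edgeR adjusted p = 1.48e-19). CXCL2 was at 1.76, 1.94 and 2.14 CPM, on 50, 46 and 60 counts against 141, 141 and 142 (log2 fold change -1.53, SE 0.126, edgeR adjusted p = 9.62e-13). In all 3 of these genes the PD-L1si libraries lay below every Cnsi library. CXCL5 was at 21.1, 21.8 and 20.2 CPM, on 600, 517 and 568 counts against 1212, 1253 and 1177 (log2 fold change -1.20, SE 0.0591, edgeR adjusted p = 3.40e-18). CXCL3, the least expressed, was at 0.916, 0.590 and 0.997 CPM, on 26, 14 and 28 counts against 39, 66 and 45 (log2 fold change -1.23, SE 0.242, edgeR adjusted p = 6.72e-05). Neither gene had overlapping groups, as was the case for 44.5% of all genes tested.

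Under IFNγ the chemokines were again lower with PD-L1si in the libraries labelled A-498. CXCL2, CXCL8, CXCL1 and CXCL3 were called lower, 4 of 5 members where 10.1% of all genes were called and 5.75% were lower. CXCL2 was at 19.3, 19.3 and 19.6 CPM in PD-L1si IFNγ, below the 48.7 to 52.9 CPM of Cnsi IFNγ but above its level in Cnsi without IFNγ (log2 fold change -1.39, SE 0.0590, edgeR adjusted p = 6.04e-20). CXCL8 was at 6.68, 6.43 and 6.15 CPM (log2 fold change -1.32, SE 0.0966, edgeR adjusted p = 7.94e-14). CXCL1 was at 5.76, 6.22 and 6.25 CPM (log2 fold change -0.92, SE 0.1003, edgeR adjusted p = 1.55e-09). Both lay below all 3 Cnsi IFNγ libraries, and for all 5 members the 2 groups did not overlap, as for 41.6% of all genes tested. CXCL3 was at 1.53, 1.90 and 2.28 CPM (log2 fold change -0.75, SE 0.194, edgeR adjusted p = 0.00184). CXCL5, at 23.2, 26.7 and 21.8 CPM, had a log2 fold change of -0.46 (SE 0.0629, edgeR adjusted p = 2.95e-07), within the fold change threshold, and it was called at -0.54 without PD-L1si IFNγ library 2. The 5 fibroblast markers, of which 2 reached 1 CPM and LUM led, summed to 7.10 to 8.01 CPM in Cnsi, 2.17 to 2.44 in Cnsi IFNγ, 12.8 to 13.2 in PD-L1si and 2.43 to 3.97 in PD-L1si IFNγ, so that the siRNA groups overlapped under IFNγ and did not without it. Their part in the chemokine levels was not tested.

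IFNγ given to PD-L1si cells of the libraries labelled A-498 raised CXCL2 9.95-fold (log2 fold change 3.32, SE 0.116, edgeR adjusted p = 4.44e-26) and CXCL3 2.22-fold (log2 fold change 1.15, SE 0.251, edgeR adjusted p = 0.000115). These were 2 of 5 members, where 33.5% of all genes were called and 17.6% were higher. CXCL1 had a log2 fold change of 0.43 (edgeR adjusted p = 0.00167), CXCL5 of 0.18 (0.0173) and CXCL8 of -0.25 (0.0395), each smaller than the fold change threshold. The groups of these 3 genes did not overlap, as for 62.4% of all genes, although the highest CXCL5 value without IFNγ and the lowest with it differed by little, both at 21.8 CPM.

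The IFNγ effect in these libraries thus depended on the siRNA for the 3 members that had fallen in Cnsi. The interaction, the log2 IFNγ effect in PD-L1si minus that in Cnsi, was 1.16 for CXCL1 (SE 0.139, edgeR adjusted p = 2.25e-07), 1.07 for CXCL8 (SE 0.125, edgeR adjusted p = 1.63e-07) and 0.75 for CXCL5 (SE 0.0863, edgeR adjusted p = 1.07e-07). These were 3 of 5 members, all higher, where 2.45% of all genes were called and 1.81% were higher. For CXCL2 it was 0.14, with a 95% confidence interval of -0.14 to 0.42 (edgeR adjusted p = 0.622), and for CXCL3 0.48, with an interval of -0.16 to 1.11 (edgeR adjusted p = 0.396). The order of the groups differed between genes: CXCL2 was highest in Cnsi IFNγ, then in PD-L1si IFNγ, Cnsi and PD-L1si, without overlap between neighbours. CXCL1, CXCL5 and CXCL8 were highest in Cnsi and second highest in Cnsi IFNγ. CXCL3 was highest in Cnsi IFNγ and lowest in PD-L1si, and its Cnsi and PD-L1si IFNγ libraries overlapped.

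In the libraries labelled 786-0 PD-L1 siRNA moved none of the 4 members past the threshold, with or without IFNγ. Without IFNγ edgeR called 0 of 4, where 2.81% of all genes were called, 1 member (CXCL2) had an unadjusted p under 0.05, and DESeq2, which gave an adjusted p for 2 of the 4, called 0. CXCL2 was at 2.95, 2.69 and 3.61 CPM in PD-L1si, above all 3 Cnsi libraries, in a comparison where 30.5% of all genes had groups that did not overlap (log2 fold change 0.39, 95% confidence interval 0.08 to 0.71, edgeR adjusted p = 0.0934). CXCL1 had 28, 23 and 30 counts in PD-L1si (log2 fold change 0.15, interval -0.44 to 0.73, edgeR adjusted p = 0.809). CXCL3 had 13, 11 and 13 counts (log2 fold change -0.14, interval -0.86 to 0.58, edgeR adjusted p = 0.864). CXCL8 had 18, 20 and 20 counts, at 0.624 to 0.656 CPM against 0.171 to 0.607 CPM in Cnsi, and was with CXCL2 the other of 2 members without overlap (log2 fold change 0.66, interval -0.08 to 1.40, edgeR adjusted p = 0.256).

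Under IFNγ edgeR called 0 of 4 in the libraries labelled 786-0, where 3.03% of all genes were called, no member had an unadjusted p under 0.05, and DESeq2, which gave an adjusted p for 2 of the 4, called 0. CXCL2 was at 12.7, 12.1 and 13.1 CPM in PD-L1si IFNγ, inside the range of Cnsi IFNγ, and 0 of the 4 members had groups without overlap, where 30.2% of all genes had (log2 fold change -0.12, interval -0.33 to 0.10, edgeR adjusted p = 0.527). CXCL1 had 32, 32 and 41 counts (log2 fold change -0.08, interval -0.60 to 0.44), CXCL3 25, 28 and 16 (0.18, interval -0.41 to 0.78) and CXCL8 8, 16 and 11 (-0.53, interval -1.29 to 0.24).

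IFNγ raised CXCL2 4.09-fold in PD-L1si cells of the libraries labelled 786-0 (log2 fold change 2.03, SE 0.126, edgeR adjusted p = 3.67e-13) and CXCL3 2.01-fold (log2 fold change 1.01, SE 0.320, edgeR adjusted p = 0.0119). These 2 of 4 members compare with 18.4% of all genes called and 11% higher, and 4 of 4 had groups that did not overlap, as 49.9% of all genes had. The CXCL3 call was lost without PD-L1si IFNγ library 1 (edgeR adjusted p = 0.0520) or 2 (0.0607). CXCL1 had a log2 fold change of 0.49 (interval -0.06 to 1.04, edgeR adjusted p = 0.151) and CXCL8 of -0.61 (interval -1.35 to 0.14, edgeR adjusted p = 0.190). The interaction passed the threshold for 0 of 4 members by edgeR, where 0.099% of all genes were called, 2 (CXCL2 and CXCL8) had an unadjusted p under 0.05, and DESeq2, which gave an adjusted p for 1 of the 4, called 0. It was -0.51 for CXCL2 (interval -0.89 to -0.13, edgeR adjusted p = 0.420) and -1.19 for CXCL8 (interval -2.25 to -0.12, edgeR adjusted p = 0.525).

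The differences between the line labels were tested in 1 model of all 24 libraries, on 21584 genes, as the effect labelled 786-0 minus that labelled A-498. PD-L1si without IFNγ differed for 3 of the 4 members measured in both, all more positive in the libraries labelled 786-0, where 3.61% of all genes were called and 2.51% were more positive: by 3.04 on the log2 scale for CXCL8 (SE 0.325, edgeR adjusted p = 8.02e-11), by 2.22 for CXCL1 (SE 0.271, edgeR adjusted p = 7.03e-09) and by 1.92 for CXCL2 (SE 0.199, edgeR adjusted p = 1.82e-11). For CXCL3 the difference was 1.09 (interval 0.22 to 1.95, edgeR adjusted p = 0.114). Under IFNγ the PD-L1si effect differed for CXCL2 by 1.28 (SE 0.115, edgeR adjusted p = 4.43e-13) and for CXCL1 by 0.85 (SE 0.243, edgeR adjusted p = 0.0121), 2 of 4, both more positive, where 4.57% of all genes were called and 2.38% were more positive. The difference was 0.94 for CXCL3 (interval 0.24 to 1.64, edgeR adjusted p = 0.0672) and 0.80 for CXCL8 (interval 0.11 to 1.48, edgeR adjusted p = 0.139), and neither passed the threshold. The CXCL1 call was lost without PD-L1si IFNγ library 3 labelled 786-0 (edgeR adjusted p = 0.0783).

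The IFNγ effect in Cnsi differed for CXCL8 by 1.82 (SE 0.332, edgeR adjusted p = 6.22e-06), for CXCL1 by 1.37 (SE 0.253, edgeR adjusted p = 6.44e-06) and for CXCL2 by -0.71 (SE 0.152, edgeR adjusted p = 0.000118), 3 of 4 members where 24% of all genes were called, 10.8% more positive and 13.1% more negative. In PD-L1si it differed for CXCL2 alone, by -1.35 (SE 0.172, edgeR adjusted p = 1.25e-09), 1 of 4 where 22.1% of all genes were called and 12.7% were more negative. The interaction of siRNA and IFNγ differed for CXCL8 by -2.24 (SE 0.471, edgeR adjusted p = 0.00233) and for CXCL1 by -1.37 (SE 0.363, edgeR adjusted p = 0.0305), 2 of 4 where 1.15% of all genes were called and 0.834% were more negative. The CXCL1 call was lost when any of 10 libraries was left out, as listed with the processing alternatives. Line and instrument cannot be told apart in these differences.

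The make-up of the summed chemokine level turned towards CXCL2 with IFNγ. The 5 genes summed, with the label A-498, to 54.2 ± 3.04 CPM per kilobase of exon (SD, n = 3) in Cnsi, 66.0 ± 1.88 in Cnsi IFNγ, 16.7 ± 0.637 in PD-L1si and 31.5 ± 1.03 in PD-L1si IFNγ. CXCL2 made up 6.96% to 7.82% of this sum in Cnsi and 54.5% to 56.0% in Cnsi IFNγ, and 7.74% to 9.32% and 42.3% to 45.3% in the PD-L1si groups. CXCL8 went from 28.3% to 28.7% of the sum in Cnsi to 8.87% to 10.3% in Cnsi IFNγ, and CXCL5 from 35.5% to 37.2% to 19.9% to 21.0%. In PD-L1si without IFNγ CXCL5 made up 50.6% to 53.3%. The 4 genes measured with the label 786-0 summed to 2.64 ± 0.223, 11.3 ± 1.06, 3.30 ± 0.430 and 10.5 ± 0.365 CPM per kilobase in the same order of groups, and CXCL2 made up 57.9% to 69.6% in Cnsi and 80.7% to 89.3% in Cnsi IFNγ.

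**Figure D3:**
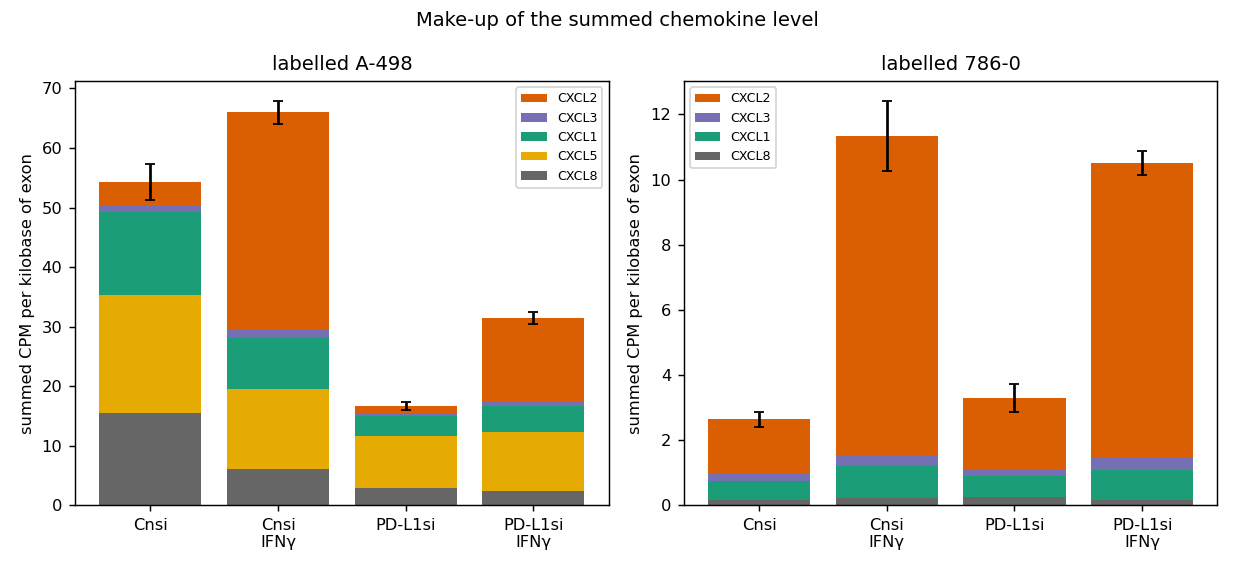
Stacked mean CPM per kilobase of exon of the chemokines measured in each group (vertical axis), with the SD of their sum over 3 libraries as the error bar, for the libraries labelled A-498 (left) and 786-0 (right, on its own scale and without CXCL5). The CXCL2 part widened with IFNγ in all 4 pairings, and the whole bar was lower in PD-L1si than in Cnsi in the libraries labelled A-498.

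Of the receptors and related ligands, CXCR2 was at 0 counts in all 12 libraries labelled A-498 and had at most 1 count in 4 of those labelled 786-0. PPBP, the platelet chemokine of the same receptor, was at 0 in the former and had at most 2 counts in 3 of the latter. CXCR1, the scavenging receptor ACKR1, PF4 and PF4V1 were not analysed here. Of 5 other CXC chemokines 1 was tested in each set. CXCL16, a membrane-bound chemokine that attracts T cells, rose with IFNγ in the Cnsi libraries labelled A-498 from 2.34 ± 0.227 to 11.4 ± 1.18 CPM (SD, n = 3; log2 fold change 2.28, edgeR adjusted p = 8.86e-19) and was lower with PD-L1si (log2 fold change -0.79 without and -0.65 under IFNγ). CXCL14, which many epithelia make without stimulation, fell with IFNγ in the Cnsi libraries labelled 786-0 from 8.00 ± 0.385 to 4.37 ± 0.640 CPM (log2 fold change -0.87, edgeR adjusted p = 6.06e-07) and was higher with PD-L1si (log2 fold change 0.58 without and 0.65 under IFNγ).

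The subunits of NF-κB and its feedback inhibitors rose with IFNγ and were lower with PD-L1si in the libraries labelled A-498 in part. Of the 14 listed genes, all tested, 9 rose and 0 fell with IFNγ in Cnsi, where 18.2% of all genes tested were higher and 18.5% lower. With PD-L1si 7 were lower and 0 higher, both without and under IFNγ, where 5.6% and 5.75% of all genes were lower. Their median log2 fold change was 0.77 with IFNγ, -0.55 with PD-L1si without IFNγ and -0.52 with PD-L1si under IFNγ, against -0.032, -0.0031 and 0.011 over all genes tested. TNFAIP3, the A20 protein that ends NF-κB signals, went from 54.7 ± 2.52 CPM in Cnsi to 209 ± 11.3 in Cnsi IFNγ (log2 fold change 1.93, edgeR adjusted p = 6.15e-28) and to 13.3 ± 1.01 in PD-L1si (log2 fold change -2.03, edgeR adjusted p = 1.51e-23). RELB, a subunit of the alternative NF-κB pathway, was at 25.3 ± 0.687 CPM in Cnsi and 10.2 ± 0.452 in PD-L1si (log2 fold change -1.31, edgeR adjusted p = 1.24e-17). CYLD, a deubiquitinase that limits the pathway, rose from 51.2 ± 1.90 to 232 ± 5.43 CPM with IFNγ (log2 fold change 2.18, edgeR adjusted p = 2.63e-29). Among the libraries labelled 786-0, where 10 of the 14 were tested, 3 rose with IFNγ in Cnsi (11.1% of all genes) and 0 passed the threshold with PD-L1si in either setting (2.81% and 3.03% of all genes). TNFAIP3 there rose from 12.6 ± 0.623 to 61.1 ± 8.45 CPM (log2 fold change 2.28, edgeR adjusted p = 1.95e-15) and RELB from 20.1 ± 0.774 to 33.9 ± 3.99 (log2 fold change 0.75, edgeR adjusted p = 5.81e-09). With PD-L1si under IFNγ both were lower by less than the fold change threshold. TNFAIP3 was at -0.44 (edgeR adjusted p = 0.000439) and RELB at -0.26 (0.0180), against -0.04 (0.852) and -0.06 (0.713) without IFNγ. The list median with PD-L1si was -0.12 under IFNγ and -0.096 without, against 0.0059 and -0.00033 over all genes tested.

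**Figure D4:**
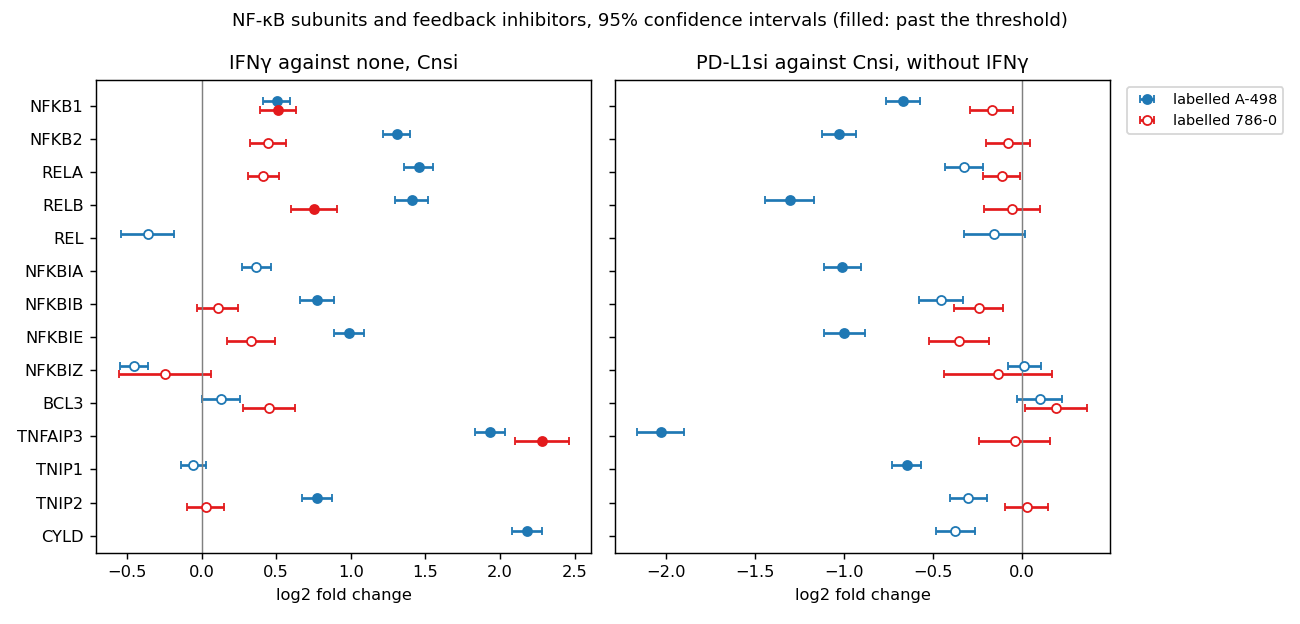
Log2 fold changes (horizontal axes) of the listed NF-κB subunits and feedback inhibitors with 95% confidence intervals, for IFNγ against none in Cnsi (left) and PD-L1si against Cnsi without IFNγ (right), in blue for the libraries labelled A-498 and in red for those labelled 786-0; filled points passed the threshold. On the right 7 blue and 0 red points are filled, all to the left of 0.

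The inducers and their receptors, such as IL-1, TNF and IL-6 family members, were changed in both directions. With the label A-498, where 20 of 26 were tested, 8 rose and 2 fell with IFNγ in Cnsi, against 18.2% and 18.5% of all genes. With PD-L1si 1 was higher and 6 lower without IFNγ, where 8.48% of all genes were called and 5.6% were lower, and 2 were higher and 10 lower under IFNγ, where 10.1% were called and 5.75% were lower. TNF, a strong inducer of all these chemokines, was at 1.51 ± 0.279 CPM in Cnsi and 0.245 ± 0.0663 in PD-L1si (log2 fold change -2.58, SE 0.382, edgeR adjusted p = 5.53e-08). IL6, a cytokine of the acute phase and like the chemokines an NF-κB target, was at 11.1 ± 0.488 and 2.07 ± 0.0317 CPM (log2 fold change -2.42, SE 0.119, edgeR adjusted p = 1.48e-19), and it rose to 75.6 ± 4.23 CPM in Cnsi IFNγ (log2 fold change 2.76, edgeR adjusted p = 4.67e-30). IL1B was at 0.385 ± 0.0463 CPM in Cnsi and 0.124 ± 0.0657 in Cnsi IFNγ (log2 fold change -1.55, edgeR adjusted p = 0.0192). With the label 786-0, where 17 were tested, 10 rose and 1 fell with IFNγ, where 18.5% of all genes were called and 11.1% were higher, 1 was lower with PD-L1si (2.81% called) and 0 passed with PD-L1si under IFNγ (3.03% called). IL1RN, the gene of the IL-1 receptor antagonist, had the largest rise there. It went from 0.0667 ± 0.0301 to 2.20 ± 0.0536 CPM with IFNγ (log2 fold change 4.93, edgeR adjusted p = 2.43e-11). IL1B, named for its fall with the label A-498, rose there from 0.704 ± 0.341 to 1.73 ± 0.416 CPM with IFNγ (log2 fold change 1.29, edgeR adjusted p = 0.000298). The TNF receptor gene TNFRSF1B rose from 0.804 ± 0.141 to 10.9 ± 2.13 CPM (log2 fold change 3.75, edgeR adjusted p = 9.38e-14), and IL1RAP, the shared chain of the IL-1 receptors, fell with IFNγ from 13.9 ± 0.295 to 8.00 ± 1.63 CPM (log2 fold change -0.80, edgeR adjusted p = 2.88e-06) and with PD-L1si to 8.70 ± 0.945 CPM (log2 fold change -0.68, edgeR adjusted p = 0.000122).

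Among the signal adaptors and kinases 21 of 22 were tested in the libraries labelled A-498, where 10 rose with IFNγ in Cnsi (18.2% of all genes) and 3 were lower with PD-L1si both without and under IFNγ (5.6% and 5.75% of all genes). IRAK2, a kinase of the IL-1 receptor complex, was at 20.9 ± 0.503 CPM in Cnsi and 7.54 ± 0.927 in PD-L1si (log2 fold change -1.48, edgeR adjusted p = 3.40e-17). TRAF1, an NF-κB-induced adaptor of TNF receptors, rose with IFNγ from 12.3 ± 0.387 to 102 ± 7.52 CPM and was at 4.69 ± 0.179 CPM in PD-L1si (log2 fold changes 3.05 and -1.39, edgeR adjusted p = 1.52e-31 and 6.75e-15). Of the 18 tested in the libraries labelled 786-0, 5 rose with IFNγ (11.1% of all genes) and 0 passed with PD-L1si in either setting (2.81% and 3.03%). TRAF1 rose there from 3.82 ± 0.224 to 18.5 ± 4.67 CPM (log2 fold change 2.27, edgeR adjusted p = 1.45e-08). With PD-L1si its log2 fold change was -0.48 under IFNγ (edgeR adjusted p = 0.0362), smaller than the fold change threshold, and -0.03 without (0.946). The list median with PD-L1si under IFNγ was -0.0075, against 0.0059 over all genes tested.

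The AP-1 and C/EBP factors, which act beside NF-κB on the CXCL8 promoter, were all tested. Of the 13 with the label A-498, 8 rose and 2 fell with IFNγ in Cnsi (18.2% and 18.5% of all genes), 6 were lower with PD-L1si (5.6%) and 3 were lower with PD-L1si under IFNγ (5.75%). ATF3, a stress-induced repressor of inflammatory genes, went from 19.3 ± 1.67 to 226 ± 10.7 CPM with IFNγ and was at 8.12 ± 0.987 CPM in PD-L1si (log2 fold changes 3.55 and -1.26, edgeR adjusted p = 4.57e-34 and 3.18e-15). In those labelled 786-0, 4 of 13 rose with IFNγ (11.1% of all genes), 1 was lower with PD-L1si (2.81% called) and 1 was higher with PD-L1si under IFNγ (3.03% called). CEBPB rose with IFNγ from 109 ± 14.2 to 304 ± 23.1 CPM (log2 fold change 1.48, edgeR adjusted p = 2.37e-08). With PD-L1si under IFNγ the list median there was -0.23, against 0.0059 over all genes tested. CEBPD was the gene called higher (log2 fold change 0.59, edgeR adjusted p = 0.0122). ATF3 (-0.35, edgeR adjusted p = 5.80e-05) and CEBPB (-0.35, 0.0216) were lower by less than the fold change threshold. Without IFNγ ATF3 was at 0.14 (0.192) and CEBPB at -0.44 (0.00695).

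The factors of mRNA decay and stability, which set the lifetime of chemokine messages, rose with IFNγ for 5 of 13 genes and were lower with PD-L1si for 2 of 13, both without and under IFNγ, in the libraries labelled A-498, where the shares of all genes were 18.2%, 5.6% and 5.75%. ZFP36, known as tristetraprolin, rose from 24.7 ± 1.25 to 58.3 ± 6.56 CPM with IFNγ (log2 fold change 1.24, edgeR adjusted p = 3.79e-17). ZC3H12A, the ribonuclease regnase-1, was at 22.1 ± 1.36 CPM in Cnsi and 9.89 ± 1.40 in PD-L1si (log2 fold change -1.15, edgeR adjusted p = 1.77e-13). Of the 12 tested in the libraries labelled 786-0, 3 rose with IFNγ, ZC3H12A among them (from 16.3 ± 1.71 to 30.6 ± 2.04 CPM, log2 fold change 0.91, edgeR adjusted p = 1.37e-09), where 11.1% of all genes rose, and 0 passed with PD-L1si in either setting (2.81% and 3.03% of all genes).

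The neutrophil growth factors and alarmins were tested for 8 of 12 genes in each set. With the label A-498 6 rose and 2 fell with IFNγ in Cnsi (18.2% and 18.5% of all genes), 5 were lower with PD-L1si (5.6%), and 1 was higher and 6 lower with PD-L1si under IFNγ (10.1% called, 5.75% lower). The median log2 fold change with IFNγ in Cnsi was 1.31 over the 8 genes and -0.032 over all genes tested. CSF2, the growth factor GM-CSF that prolongs neutrophil survival, was 1 of the 2 that fell. It was at 1.34 ± 0.0940 CPM in Cnsi and 0.327 ± 0.217 in Cnsi IFNγ (log2 fold change -2.08, SE 0.363, edgeR adjusted p = 7.05e-07). SAA1, an acute-phase protein, was at 14.1 ± 0.602 CPM in Cnsi and 3.25 ± 0.118 in PD-L1si (log2 fold change -2.12, SE 0.107, edgeR adjusted p = 9.96e-19). In those labelled 786-0, 3 rose with IFNγ (11.1% of all genes), 1 was higher and 1 lower with PD-L1si (2.81% called), and 0 passed with PD-L1si under IFNγ (3.03% called). SAA1 rose there with IFNγ from 2.83 ± 0.467 to 39.1 ± 3.67 CPM (log2 fold change 3.78, edgeR adjusted p = 5.54e-21).

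The genes most like the chemokines were found by the Pearson correlation, over the 12 libraries of a label, of their log2 (CPM + 1) with the mean of the standardized values of the measured members. The libraries of a label share groups and depth, and the correlations are a description. Among 14959 genes with the label A-498 they were PTPRJ, a receptor phosphatase (0.987), CLEC4E, a receptor of the innate immune system (0.985), the amino acid transporter gene SLC1A4 (0.982), the prion protein gene PRNP (0.981) and RNF144B (0.980). CLEC4E was at 18.2 CPM in Cnsi, 15.8 in Cnsi IFNγ, 5.12 in PD-L1si and 9.25 in PD-L1si IFNγ on average. Of the members themselves CXCL1 was closest to the mean profile (0.938) and CXCL2 farthest from it (0.559). Among 14169 genes with the label 786-0 they were PSME3IP1 (0.983), the keratin gene KRT18 (0.983), NACC2 (0.981), NSUN5 (0.974) and NAA10 (0.971), and CXCL8 was farthest from the mean profile of the members (0.280).

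CXCL5 shares part of its bases with an antisense long noncoding gene, ENSG00000287037, which had 116 to 387 counts in the libraries labelled A-498, 23.7% to 31.7% of the CXCL5 count of the same library. The authors counted with strand setting 1, and how far the counts tell the strands apart was not tested. Long noncoding genes were compared that lay by over 90% of their exon bases inside exons of an opposite-strand coding gene with over 5000 counts. Their median count was 12.9% of that of the coding gene over 265 in the libraries labelled A-498 (quartiles 5.72% and 23.15%). It was 12.7% over 251 in those labelled 786-0 (quartiles 5.62% and 21.21%). Such counts may be transcripts of the noncoding genes or reads of the coding genes, and which was not tested. Reads of CXCL5 and of its antisense partner may therefore be mixed. Not all reads of CXCL2 and CXCL3 can be told apart either, since these genes share sequence as given above.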

How the data were processed

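RNA of 24 samples was sequenced as strand-marked poly(A) libraries, with paired reads. The authors trimmed the reads with Trimmomatic 0.36.6, aligned them to GRCh38 with HISAT2 2.1.0 and counted exon reads of GENCODE 33 genes with featureCounts 1.6.3 at a mapping quality of at least 12. Their counting used strand setting 1. The deposited values are these raw counts, without normalization, and every column of the table had a sample. Names, positions and exon lengths came from GENCODE 44.

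The members and the gene lists were chosen with earlier results of these data known, and their counts support nothing on their own. Genes with at least 10 counts over the 3 libraries of any group were tested. The 12 libraries of a label were scaled with TMM and fitted in 1 quasi-likelihood model of edgeR 4.0.16 (R 4.3.3), and all 24 in 1 model for the differences between labels. Adjusted p-values are those of Benjamini and Hochberg over all genes tested. Genes were named by rule: all members, CD274, the receptors, up to 2 called genes with the largest rises and 2 with the largest falls of a list and comparison, and the 5 genes most like the members with a mean of at least 1 CPM. Alternatives were DESeq2 1.42.0, RLE scaling, 2 other filters, coding genes only, only the groups compared, a replicate block, other thresholds and the omission of each library. No label says that replicates were separate cultures, so that p-values measure the spread between these libraries, which may be technical. No replicate pair agreed within counting noise (chi-square per degree of freedom 1.63 to 24.3 over 24 pairs).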

Additional observations from a re-analysis of the deposited data

Results flagged for a closer look

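The following effects differed between the siRNA groups or between the line labels by a test of the difference itself, and no explanation was weighed. In the libraries labelled A-498 the IFNγ effect was more positive in PD-L1si than in Cnsi by 0.75 on the log2 scale for CXCL5, 1.16 for CXCL1 and 1.07 for CXCL8.

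Between the line labels (786-0 minus A-498) the log2 IFNγ effect in Cnsi differed by -0.71 for CXCL2, -1.44 for CD274, 1.37 for CXCL1 and 1.82 for CXCL8. In PD-L1si it differed by -1.35 for CXCL2 and -0.63 for CD274. The log2 effect of PD-L1si without IFNγ differed by 1.92 for CXCL2, 1.05 for CD274, 2.22 for CXCL1 and 3.04 for CXCL8, and under IFNγ by 1.28 for CXCL2, 1.87 for CD274 and 0.85 for CXCL1. The interaction of siRNA and IFNγ differed by -1.37 for CXCL1 and -2.24 for CXCL8. CD274 fell less with PD-L1si in the libraries labelled 786-0 in both settings, and the part of this in the chemokine differences was not tested.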

How the results depend on the processing

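Of the 65 results of single members, none changed direction past the threshold. RLE in place of TMM left all 65 on their side of the threshold, as did the replicate block. No filter, filterByExpr and coding genes only left all 45 results within a label on their side. With DESeq2, which was not run for the differences between labels, 36 of these 45 kept their side and 1 lost it, and the others had no adjusted p. Leaving out 1 library kept 1000 results, ended 16 calls and added 4. The members called with IFNγ in Cnsi labelled 786-0 went from 2 to 1 with DESeq2, with only the compared groups in the model and at a log2 fold change over 1, and ran from 1 to 2 without single libraries. At a log2 fold change over 1 the members called in the libraries labelled A-498 were 2 with IFNγ in Cnsi (5 in the report) and 2 with PD-L1si under IFNγ (4 in the report), and 1 for the difference in PD-L1si under IFNγ (2 in the report). At that threshold CXCL5 also lost its call for the interaction labelled A-498 (0.75), and CXCL2 for the difference in IFNγ in Cnsi (-0.71). Without a fold change threshold 5 were called with IFNγ in PD-L1si labelled A-498 (2 in the report), and CXCL5 was also called with PD-L1si under IFNγ labelled A-498 (-0.46). Without single libraries the members called ran from 1 to 2 with IFNγ in PD-L1si labelled 786-0 and from 1 to 2 for the difference in the interaction. The CXCL1 call of the latter was lost without each of 10 libraries (edgeR adjusted p = 0.0531 to 0.106): Cnsi 2, PD-L1si 1 and PD-L1si IFNγ 3 labelled A-498, and Cnsi 1, Cnsi 2, Cnsi IFNγ 1, PD-L1si 1, PD-L1si 3, PD-L1si IFNγ 1 and PD-L1si IFNγ 2 labelled 786-0. CXCL2 was called for it without Cnsi IFNγ library 1 labelled 786-0 (-0.75, edgeR adjusted p = 0.0399). CXCL3 was called for the difference in PD-L1si under IFNγ at 1.10 and 1.15 without PD-L1si IFNγ library 3 labelled A-498 or 786-0.

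The replicate numbers were not taken as pairs, since 3 of 18 same-numbered pairs labelled A-498 and 5 of 18 labelled 786-0 had deviations correlated over 0.1. The mean correlation was 0.0499 with the same and -0.0249 with another number in the former and 0.0280 and -0.0136 in the latter, and 8 and 3 of 12 libraries were closest to their own number, a hint from the data for the former. With the replicate block the members called stayed at 5 and 2 with IFNγ in Cnsi labelled A-498 and 786-0, and at 5 and 0 with PD-L1si without IFNγ. The depth limits CXCL3 and CXCL8 labelled 786-0 most, with 5 to 28 counts per library.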
